A study of Homo sapiens with 3 samples.

Results

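The genes of the G1 decision were followed in HGC-27 cells: the D-type cyclins CCND1, CCND2 and CCND3, the E-type cyclins CCNE1 and CCNE2, the kinases CDK2, CDK4 and CDK6, the retinoblastoma gene RB1 and the transcription factor gene E2F1. They were taken by gene symbol from the deposited table, and all 10 were found among its 50868 genes. HGC-27 is an established human line from an undifferentiated gastric carcinoma. RNA was sequenced from 3 cultures at passage 6, collected 48 h after they received an siRNA against IRF3, an siRNA against YAP, or a control siRNA; they are called IRF3-siRNA, YAP-siRNA and control cells here. IRF3 is a transcription factor of the antiviral response, and YAP is the coactivator that the Hippo pathway restrains. A single library stood for each condition, so there was no replicate check, no test across samples was possible and no p-value is given. Intervals are 95% intervals of counting error alone, and reads copied by PCR are not independent molecules. In bulk RNA, fewer cells expressing a gene and less of its RNA per cell cannot be told apart.

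In G1, mitogen signals raise D-type cyclins, which bind CDK4 or CDK6 and begin to phosphorylate the RB protein. E-type cyclins with CDK2 complete that phosphorylation. RB in its unphosphorylated form holds E2F1 and related factors in check. Once released, E2F1 drives genes of DNA synthesis, the cyclin E genes and its own gene. YAP with its TEAD partners is known to promote proliferation in epithelial tissues.

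Promoter sequences are shown for the member whose level was higher than control under both siRNAs and that regulates its own gene (E2F1), for the member that differed most between the IRF3-siRNA and YAP-siRNA cells (CCND3), and for the kinase partners of the D-type cyclins, whose ratios to control lay on opposite sides of 1 (CDK4 and CDK6). The sequences come from RefSeq (GRCh38.p14), from which windows of 6 of the 10 members were taken, with CCNE2 left out of the search. Each is the 250 bases before an annotated start, written 5′ to 3′ on the gene's strand: E2F1 at chr20:33686386-33686635, CCND3 at chr6:41941809-41942058, CDK4 at chr12:57752311-57752560 and CDK6 at chr7:92836574-92836823, all on the minus strand. Capitals mark matches, on either strand, to the letters of an E2F site (TTTNNCGC), a TEAD site (GGAATG) or an IRF site (GAAA, any 2 bases, GAAA).
E2F1: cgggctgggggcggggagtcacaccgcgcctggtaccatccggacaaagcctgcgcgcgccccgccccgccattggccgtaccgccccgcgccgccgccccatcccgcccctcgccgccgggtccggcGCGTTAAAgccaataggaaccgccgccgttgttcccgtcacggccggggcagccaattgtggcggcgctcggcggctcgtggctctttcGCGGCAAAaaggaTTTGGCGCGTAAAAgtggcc
CCND3: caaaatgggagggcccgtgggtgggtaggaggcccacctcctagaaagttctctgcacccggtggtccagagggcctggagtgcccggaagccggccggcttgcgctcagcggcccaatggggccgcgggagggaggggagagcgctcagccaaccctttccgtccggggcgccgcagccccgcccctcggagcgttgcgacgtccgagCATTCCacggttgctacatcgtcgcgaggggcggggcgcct
CDK4: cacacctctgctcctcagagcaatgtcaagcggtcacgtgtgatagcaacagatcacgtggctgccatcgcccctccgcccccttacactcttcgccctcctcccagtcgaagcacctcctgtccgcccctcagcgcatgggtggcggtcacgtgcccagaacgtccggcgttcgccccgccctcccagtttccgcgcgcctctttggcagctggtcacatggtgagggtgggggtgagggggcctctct
CDK6: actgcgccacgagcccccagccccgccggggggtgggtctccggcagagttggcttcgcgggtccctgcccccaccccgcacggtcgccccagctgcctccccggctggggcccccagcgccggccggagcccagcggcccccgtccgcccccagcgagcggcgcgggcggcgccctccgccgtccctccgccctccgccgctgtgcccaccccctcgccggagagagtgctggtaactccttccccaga
The E2F1 window held 4 matches to the E2F letters, at 122 to 115, 33 to 26, 20 to 13 and 14 to 7 bases before the start, of which the last pair overlap. Of 35116 such windows in RefSeq, 5.92% held at least 1 match to these letters. The CCND3 window held 1 match to the TEAD letters, at 41 to 36 bases before the start, and 11.9% of all windows held such a match. CCND3 has other annotated starts, and their windows held no match to any of the motifs. The windows of CDK4 and CDK6 held none either, and 3.02% of all windows held the IRF letters. A match in letters is a description and does not show binding.

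Counts assigned to genes totalled 14941556 in IRF3-siRNA cells, 14385959 in YAP-siRNA cells and 13949401 in control cells. YAP1 had 3.58 FPKM (fragments per kilobase of gene, scaled to the library's total) in IRF3-siRNA cells, 2.23 in YAP-siRNA cells and 5.89 in control cells. IRF3 had 2.90 FPKM in IRF3-siRNA cells, 3.86 in YAP-siRNA cells and 3.55 in control cells. The count ratio to control was 0.818 (0.732 to 0.915) for IRF3 in IRF3-siRNA cells and 0.380 (0.334 to 0.431) for YAP1 in YAP-siRNA cells, and YAP1 was also lower in IRF3-siRNA cells, at 0.608 (0.546 to 0.677). In IRF3-siRNA cells 27.6% of genes had a lower log2 ratio to control than IRF3, so its RNA checks that label only weakly. IRF3 also overlaps exons of BCL2L12, which lies on the other strand. Markers of gastric epithelium were absent or low. None of 5 epithelial markers reached 1 FPKM in any library, and the highest was KRT8, at 0.31 FPKM in IRF3-siRNA cells, 0.27 in YAP-siRNA cells and 0.40 in control cells. The gastric markers TFF1, TFF2 and GKN1 had 0 counts in all 3 libraries. MUC5AC had 0 counts in IRF3-siRNA cells, 3 in YAP-siRNA cells and 0 in control cells. CDX2, the remaining gastric marker, had 2.18 FPKM in IRF3-siRNA cells, 2.51 in YAP-siRNA cells and 2.99 in control cells. Of 5 mesenchymal markers 3 reached 1 FPKM: VIM was high, FN1 and SNAI2 were lower, and CDH2 and ZEB1 stayed under 1 FPKM in all 3 libraries. The 5 fibroblast markers, mostly COL1A1 and COL3A1, summed to 737 FPKM in IRF3-siRNA cells, 775 in YAP-siRNA cells and 866 in control cells. Their part in the results was not tested.

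Among the D-type cyclins, CCND1 and CCND2 were lower than control in both IRF3-siRNA and YAP-siRNA cells, and CCND3 was lower in IRF3-siRNA cells but not in YAP-siRNA cells. CCND1 (ENSG00000110092, chromosome 11, 69641087 to 69654474, hg38) had 14.8 FPKM in IRF3-siRNA cells, 15.3 in YAP-siRNA cells and 25.7 in control cells, on 1559, 1553 and 2527 counts. CCND2 (ENSG00000118971, chromosome 12, 4273772 to 4305350) had 17.3 FPKM in IRF3-siRNA cells, 16.9 in YAP-siRNA cells and 28.9 in control cells, on 2002, 1887 and 3121 counts. For both genes the siRNA libraries lay close together and the control library lay above them, with counting intervals that did not overlap those of the siRNA libraries. CCND3 (ENSG00000112576, chromosome 6, 41934933 to 42050357) had 5.53 FPKM in IRF3-siRNA cells, 10.03 in YAP-siRNA cells and 9.21 in control cells, on 1246, 2175 and 1937 counts. For CCND3 the IRF3-siRNA library was the low library, and the YAP-siRNA and control libraries were close.

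**Figure D1:**
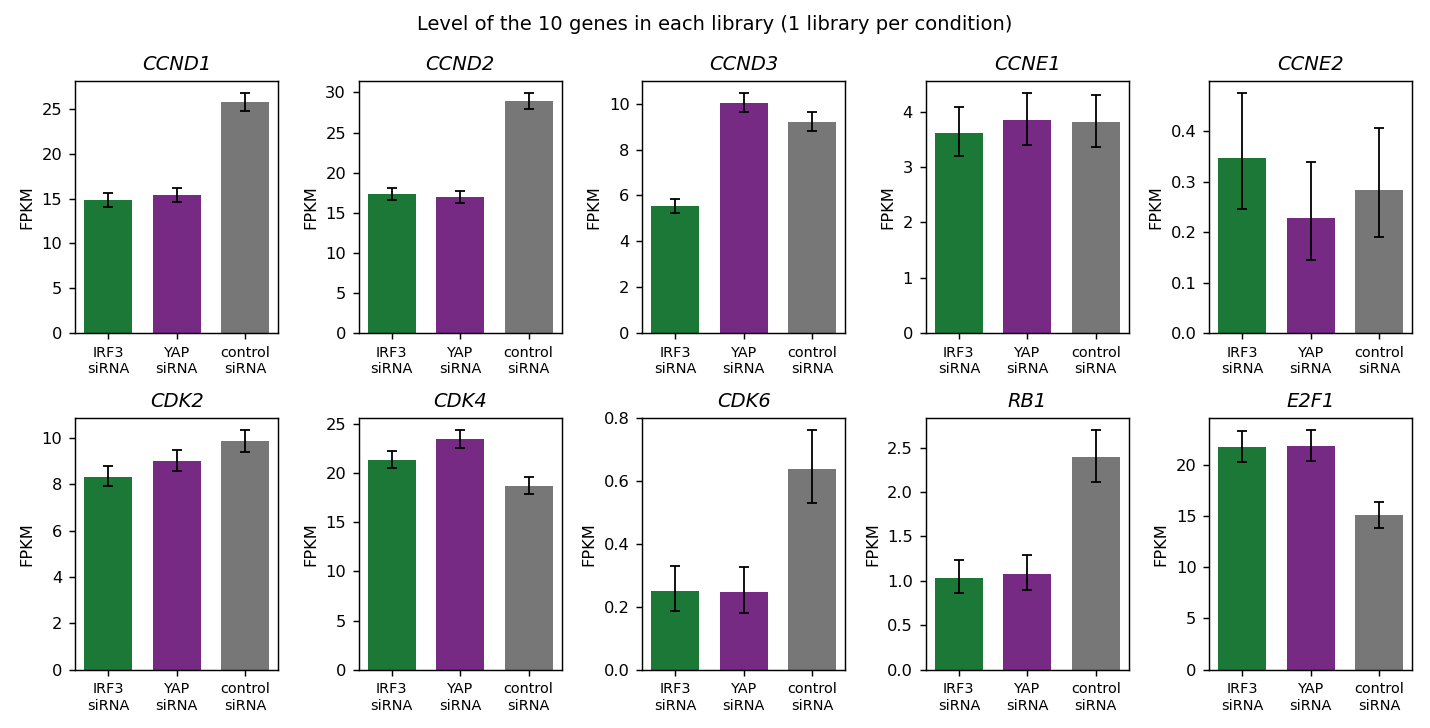
Level of each gene in FPKM (y axis, from 0, with its own scale per gene) in the IRF3 siRNA, YAP siRNA and control siRNA libraries, 1 library each; error bars are exact Poisson 95% intervals of the count. CCND1, CCND2, CDK6 and RB1 were highest in the control library, E2F1 and CDK4 were lowest there, and CCND3 was low in IRF3-siRNA cells, at 5.53 FPKM.

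As ratios of counts per total, CCND1 gave 0.576 (0.540 to 0.614) in IRF3-siRNA cells over control and 0.596 (0.559 to 0.635) in YAP-siRNA cells over control. CCND2 gave 0.599 (0.566 to 0.634) in IRF3-siRNA cells and 0.586 (0.553 to 0.621) in YAP-siRNA cells. These ratios were alike in size, and none reached 2-fold. They were less alike on the log2(FPKM + 1) scale with a trend in level, exon length and GC content removed. There CCND2 was at -0.53 in IRF3-siRNA cells and -0.60 in YAP-siRNA cells, in place of -0.71 and -0.74. CCND1 was at -0.72 in IRF3-siRNA cells and -0.69 in YAP-siRNA cells, in place of -0.76 and -0.71. The CCND3 ratio to control was 0.601 (0.559 to 0.645) in IRF3-siRNA cells and 1.09 (1.02 to 1.16) in YAP-siRNA cells. The comparisons with control share the 1 control library, so any deviation of that library enters both. CCND1 overlaps exons of ORAOV1, which had 140 counts in IRF3-siRNA cells, 156 in YAP-siRNA cells and 147 in control cells.

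The comparison of IRF3-siRNA with YAP-siRNA cells leaves the control library out. There the CCND3 count ratio was 0.552 (0.514 to 0.592), against 0.967 (0.9004 to 1.04) for CCND1 and 1.02 (0.959 to 1.09) for CCND2. CCND3 was thus the D-type cyclin that differed between these libraries beyond counting error. On the log2(FPKM + 1) scale its difference was -0.76, and 71 of the 11103 genes with a mean of at least 1 FPKM (0.639%) had a lower value. With a trend in level, exon length and GC content removed it was -0.78.

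CDK4, by level the main kinase partner of the D-type cyclins, and CDK6, its scarce counterpart, had ratios to control on opposite sides of 1. CDK4 (ENSG00000135446, chromosome 12, 57747727 to 57756013) had 21.4 FPKM in IRF3-siRNA cells, 23.5 in YAP-siRNA cells and 18.7 in control cells, on 2396, 2533 and 1959 counts. Its count ratio to control was 1.14 (1.08 to 1.21) in IRF3-siRNA cells and 1.25 (1.18 to 1.33) in YAP-siRNA cells. The control library was the lowest, by a small margin. CDK4 overlaps exons of TSPAN31, which lies on the other strand. With all genes joined to CDK4 by a chain of exon overlaps summed, its log2 ratio in YAP-siRNA cells was 0.21 in place of 0.31. That sum takes in more genes than CDK4 and TSPAN31. With the trend removed the log2 ratio of CDK4 in IRF3-siRNA cells was 0.08 in place of 0.18. With TMM-scaled CPM (counts per total, scaled by the trimmed mean of M-values) it was larger, at 0.29 in IRF3-siRNA cells and 0.42 in YAP-siRNA cells.

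CDK6 (ENSG00000105810, chromosome 7, 92604921 to 92836594) had 0.251 FPKM in IRF3-siRNA cells, 0.245 in YAP-siRNA cells and 0.638 in control cells, on 51, 48 and 121 counts. It was scarce in all 3 libraries and highest in the control library, with no overlap of the control interval with the others. Its count ratio to control was 0.393 (0.278 to 0.550) in IRF3-siRNA cells and 0.385 (0.269 to 0.542) in YAP-siRNA cells. These are past 2-fold as point values, but their intervals include smaller differences. With a mean of 0.378 FPKM it lay under the filter of 1 FPKM and out of the counts on the FPKM + 1 scale.

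**Figure D2:**
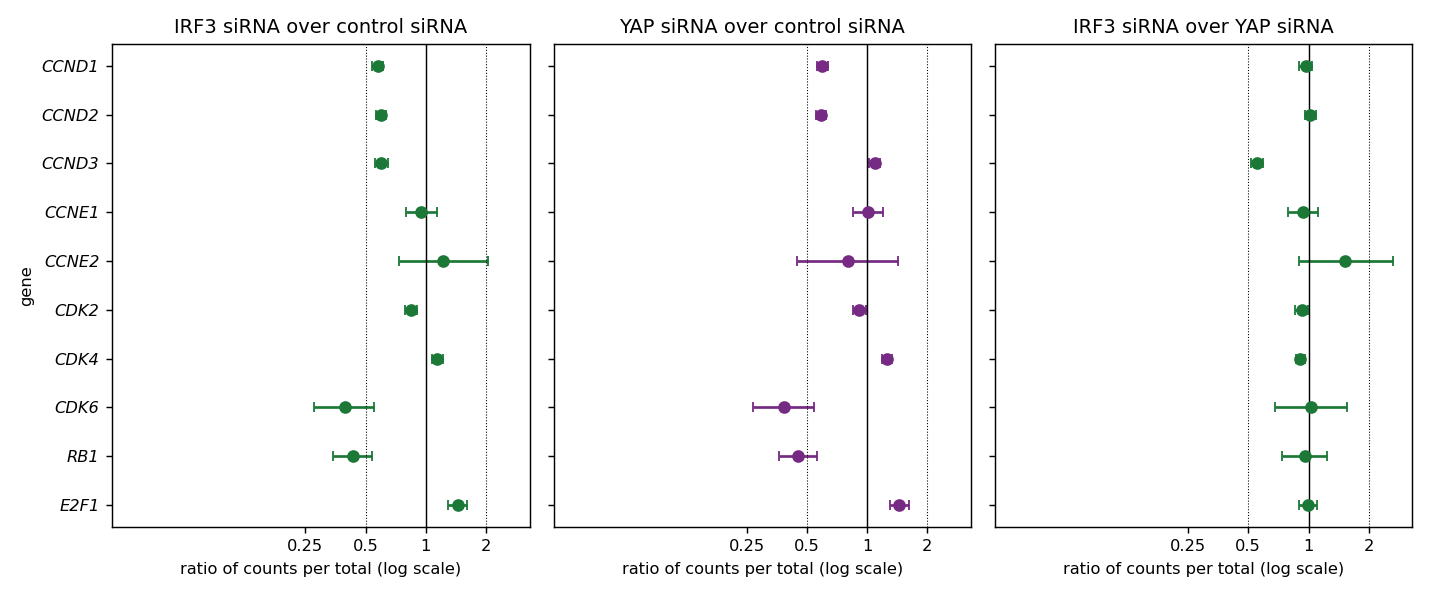
Ratio of counts per total count (x axis, log scale) for each gene, in IRF3 siRNA over control, YAP siRNA over control and IRF3 siRNA over YAP siRNA; bars are exact Clopper-Pearson 95% intervals, and dotted lines mark 2-fold either way. RB1 and CDK6 lay past 2-fold to the left in both comparisons with control, and CCND3, at 0.552, had the lowest ratio of IRF3 siRNA over YAP siRNA.

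CCNE1 and the kinase of the E-type cyclins, CDK2, differed little, and the counts of CCNE2 were too low to tell. CCNE1 (ENSG00000105173, chromosome 19, 29811898 to 29824308) had 3.62 FPKM in IRF3-siRNA cells, 3.85 in YAP-siRNA cells and 3.81 in control cells, on 263, 269 and 258 counts. Its intervals overlapped among all 3 libraries, and its count ratio to control was 0.952 (0.798 to 1.13) in IRF3-siRNA cells and 1.01 (0.849 to 1.20) in YAP-siRNA cells. The sign of its log2 ratio depended on the scaling: in IRF3-siRNA cells it was -0.06 on the FPKM + 1 scale and 0.03 with TMM-scaled CPM. CCNE2 (ENSG00000175305, on chromosome 8) was near the limit of detection, at 0.346 FPKM in IRF3-siRNA cells, 0.227 in YAP-siRNA cells and 0.283 in control cells, on 38, 24 and 29 counts. Its ratio to control was 1.22 (0.735 to 2.06) in IRF3-siRNA cells and 0.802 (0.447 to 1.43) in YAP-siRNA cells. The ratio of IRF3-siRNA over YAP-siRNA cells was 1.52 (0.891 to 2.66), and all of these intervals include 1, so no difference was detectable at this depth. CCNE2 also overlaps exons of the more abundant INTS8.

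CDK2 (ENSG00000123374, chromosome 12, 55966769 to 55972784) had 8.33 FPKM in IRF3-siRNA cells, 9.01 in YAP-siRNA cells and 9.85 in control cells, on 1425, 1484 and 1573 counts. Its count ratio to control was 0.846 (0.787 to 0.909) in IRF3-siRNA cells and 0.915 (0.852 to 0.983) in YAP-siRNA cells. Both were slightly under 1. CDK2 overlaps exons of PMEL, which had 189 counts in IRF3-siRNA cells, 209 in YAP-siRNA cells and 147 in control cells.

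RB1, which restrains E2F1, was lower than control in both IRF3-siRNA and YAP-siRNA cells, and E2F1 was higher in both. RB1 (ENSG00000139687, chromosome 13, 48303751 to 48481986) had 1.03 FPKM in IRF3-siRNA cells, 1.08 in YAP-siRNA cells and 2.39 in control cells, on 123, 124 and 266 counts. Its count ratio to control was 0.432 (0.346 to 0.537) in IRF3-siRNA cells and 0.452 (0.362 to 0.561) in YAP-siRNA cells, past 2-fold as point values. The siRNA libraries were alike, with a ratio of 0.955 (0.738 to 1.24) of IRF3-siRNA over YAP-siRNA cells. On the FPKM + 1 scale the pseudocount shrinks the differences of low genes, and there the log2 ratio to control was -0.74 in IRF3-siRNA cells and -0.70 in YAP-siRNA cells, short of 2-fold.

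RB1 has a low level and a low GC content, 37.3% in its longest transcript. After removal of an additive spline trend in level, exon length and GC content, its log2 ratio to control was -0.49 in IRF3-siRNA cells and -0.50 in YAP-siRNA cells. That trend accounted for 22.5% of the variance across genes in IRF3-siRNA against control cells, 18.6% in YAP-siRNA against control cells and 2.95% in IRF3-siRNA against YAP-siRNA cells. CDK6, with 39.5% GC and a still lower level, could not be fitted in this way, since it lay under the filter.

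E2F1 (ENSG00000101412, chromosome 20, 33675683 to 33686404) had 21.7 FPKM in IRF3-siRNA cells, 21.8 in YAP-siRNA cells and 15.1 in control cells, on 812, 786 and 526 counts. The siRNA libraries were level with each other and both lay above control without overlap of their intervals. The count ratio to control was 1.44 (1.29 to 1.61) in IRF3-siRNA cells and 1.45 (1.30 to 1.62) in YAP-siRNA cells. This did not reach 2-fold, and 97.5% of the genes tested in IRF3-siRNA cells and 97.7% in YAP-siRNA cells had a lower log2 ratio. E2F1 has a GC content of 62.5%, and with the trend removed its log2 ratio was 0.29 in place of 0.50 in IRF3-siRNA cells and 0.35 in place of 0.51 in YAP-siRNA cells.

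Under the 2-fold rule on the FPKM + 1 scale, none of the 8 members with a mean of at least 1 FPKM was called in any comparison. Over all 11103 such genes, 1.0% were called in IRF3-siRNA against control cells, 0.820% in YAP-siRNA against control cells and 0.612% in IRF3-siRNA against YAP-siRNA cells. By count ratio, a rule added after seeing the data for the 13810 genes with at least 30 counts in a library, 2 of the 10 members (RB1 and CDK6) were past 2-fold and lower than control in IRF3-siRNA cells and the same 2 in YAP-siRNA cells. By that rule 6.44% of genes were lower in IRF3-siRNA cells and 5.66% in YAP-siRNA cells, and 2 members are too few to set against these shares. No member was past 2-fold by count ratio between IRF3-siRNA and YAP-siRNA cells, where 2.10% of genes were. The median log2 ratio of the 8 members to control was -0.43 in IRF3-siRNA cells and -0.05 in YAP-siRNA cells, beside -0.03 and -0.02 over all genes.

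**Figure D3:**
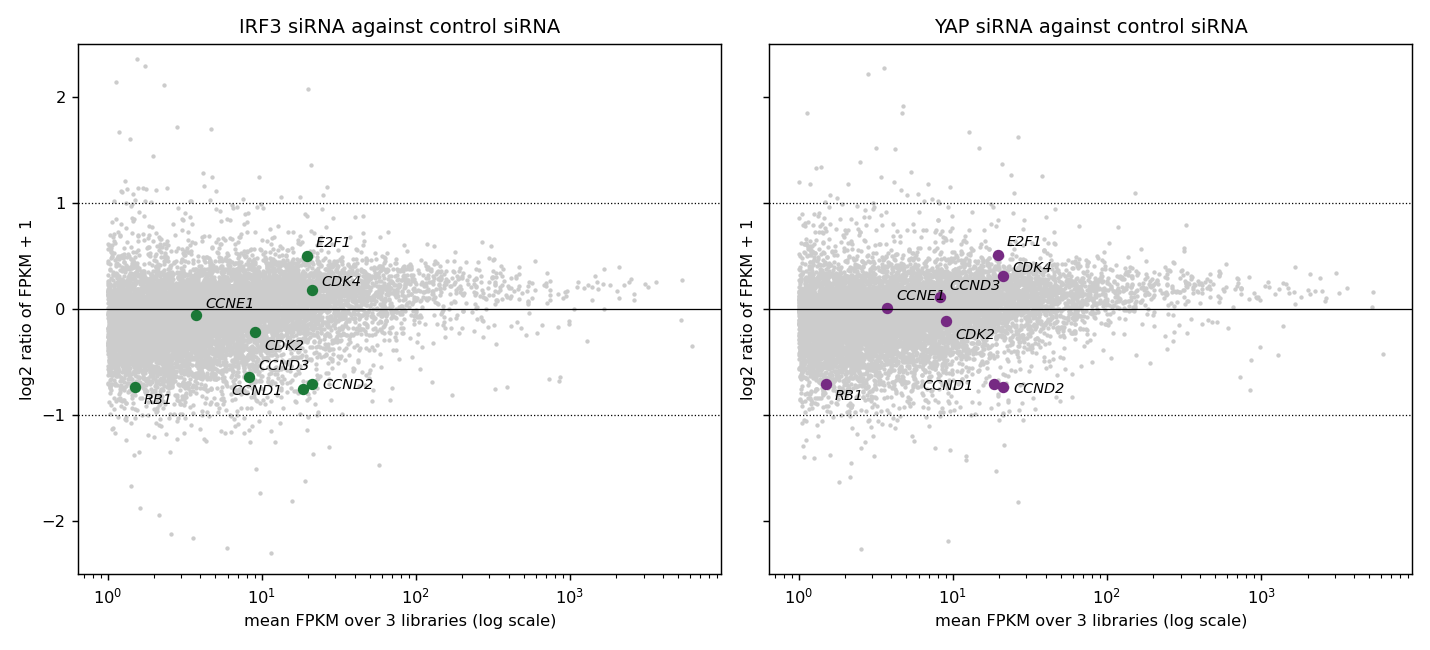
Log2 ratio of FPKM + 1 (y axis) against mean FPKM over the libraries (x axis, log scale) for the 11103 genes with a mean of at least 1 FPKM, of which 6 (IRF3 siRNA against control) and 5 (YAP siRNA against control) lie outside the drawn range; coloured points are the 8 members that passed the filter, and dotted lines mark 2-fold. No member crosses a dotted line; CCND1, CCND2 and RB1 lie toward the lower edge of the cloud in both panels and E2F1 toward the upper edge.

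Ratios between members within a library do not depend on how libraries are scaled. E2F1 over RB1, by FPKM, was 21.0 (17.4 to 25.6) in IRF3-siRNA cells, 20.2 (16.7 to 24.6) in YAP-siRNA cells and 6.29 (5.42 to 7.32) in control cells. Relative to control this ratio was 3.34-fold (2.61 to 4.28) in IRF3-siRNA cells and 3.20-fold (2.51 to 4.11) in YAP-siRNA cells. The RNA of the activator stood higher against that of its restraint in both siRNA libraries, by nearly the same factor. The size of this difference depends on the scale and on that fitted trend. On the FPKM + 1 scale the log2 ratios of E2F1 and RB1 to control differed by 1.24 in IRF3-siRNA cells and 1.21 in YAP-siRNA cells, by count ratio by 1.74 and 1.68, and with the trend removed by 0.78 and 0.85.

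CDK4 over CDK6 was 85.2 (64.6 to 115) in IRF3-siRNA cells, 95.7 (72.0 to 130.2) in YAP-siRNA cells and 29.4 (24.4 to 35.6) in control cells. CCND1 over CDK4, a cyclin over its kinase, was 0.693 (0.650 to 0.739) in IRF3-siRNA cells, 0.653 (0.613 to 0.696) in YAP-siRNA cells and 1.37 (1.29 to 1.46) in control cells. CCND1 therefore exceeded CDK4 on the FPKM scale in the control library alone. Per union exon length, the length of a gene's exons with overlaps counted a single time, it was below CDK4 in all 3 libraries, at 0.427 in IRF3-siRNA cells, 0.402 in YAP-siRNA cells and 0.846 in control cells. CCNE1 over CCND1 was 0.245 (0.214 to 0.279) in IRF3-siRNA cells, 0.251 (0.220 to 0.286) in YAP-siRNA cells and 0.148 (0.130 to 0.168) in control cells. CCNE1 RNA relative to CCND1 RNA was thus higher in both siRNA libraries, with CCNE1 level and CCND1 lower.

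Summed over the family, D-type cyclin RNA came to 37.7 FPKM in IRF3-siRNA cells, 42.3 in YAP-siRNA cells and 63.8 in control cells. CCND3 made up 14.7% of it in IRF3-siRNA cells, 23.7% in YAP-siRNA cells and 14.4% in control cells. The YAP-siRNA library stood apart from both others. CCND1 made up 39.4% in IRF3-siRNA cells, 36.3% in YAP-siRNA cells and 40.3% in control cells, and the rest was CCND2. CCND3 over CCND1 relative to control was 1.04-fold (0.947 to 1.15) in IRF3-siRNA cells and 1.83-fold (1.67 to 1.997) in YAP-siRNA cells. Per union exon length CCND3 made up 26.3% in IRF3-siRNA cells, 39.0% in YAP-siRNA cells and 25.8% in control cells. Its share was larger in YAP-siRNA cells on both scales, and on the second it was the most abundant D-type cyclin there. CCNE1 made up 91.3% of E-type cyclin RNA in IRF3-siRNA cells, 94.4% in YAP-siRNA cells and 93.1% in control cells, with intervals that overlapped.

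**Figure D4:**
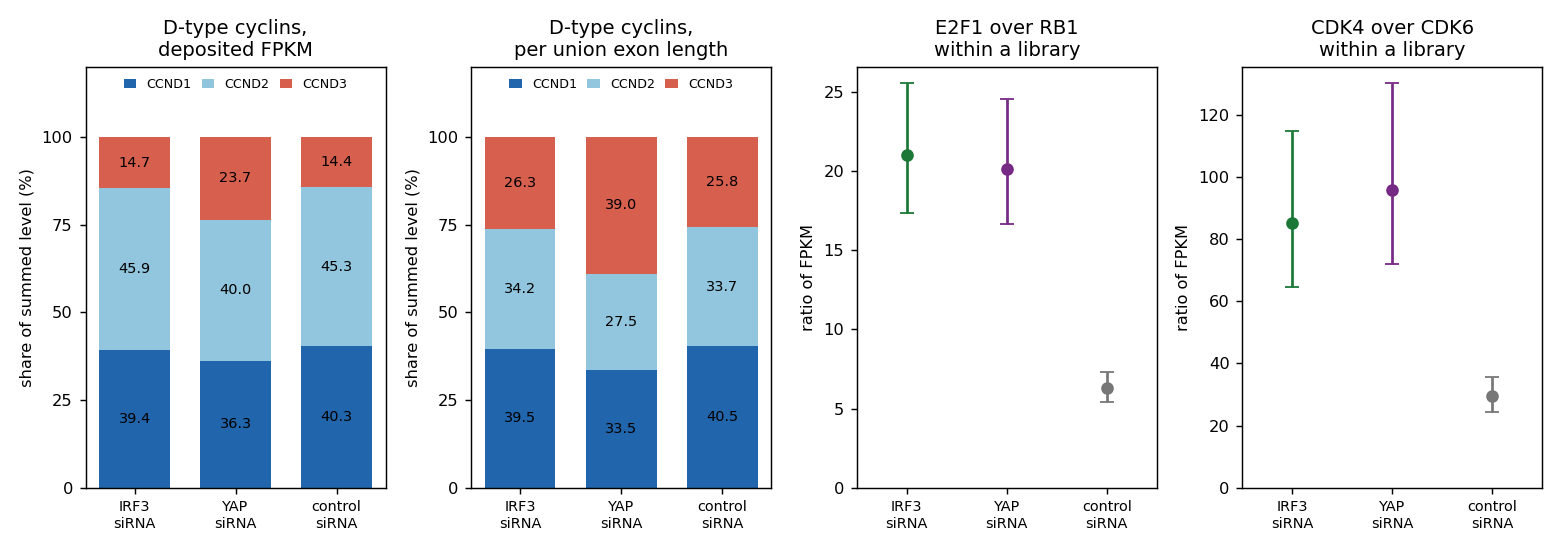
Left panels give the share of CCND1, CCND2 and CCND3 in the summed level of the D-type cyclins (y axis, percent), by deposited FPKM and per union exon length; right panels give the within-library ratio of FPKM of E2F1 over RB1 and of CDK4 over CDK6 (y axes from 0) with exact 95% counting intervals. The CCND3 share was 23.7% in YAP-siRNA cells by FPKM, and both ratios were higher in the siRNA libraries than in control.

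The order of levels depended on the length used. In IRF3-siRNA cells E2F1 was highest by FPKM, at 21.7 (20.2 to 23.3), with CDK4 next at 21.4 (20.5 to 22.3), and their intervals overlapped. In YAP-siRNA cells CDK4 was highest at 23.5 (22.6 to 24.4), with E2F1 next at 21.8 (20.3 to 23.4), again with overlap. In control cells CCND2 was highest at 28.9, followed without overlap by CCND1, CDK4, E2F1 and CDK2. CDK2 (9.37 to 10.4) and its neighbour CCND3 (8.81 to 9.63) did overlap, and CCNE1, RB1, CDK6 and CCNE2 followed. Per union exon length CDK4 was highest in all 3 libraries, at 50.6 in IRF3-siRNA cells, 55.6 in YAP-siRNA cells and 44.3 in control cells. CDK6 and CCNE2 held the lowest places on both scales.

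The wider pathway was read through 4 gene lists, and none of their members reached 2-fold on the FPKM + 1 scale in IRF3-siRNA or YAP-siRNA cells against control, where 1.0% and 0.820% of all genes did. Of the other RB family, E2F and DP genes, 10 of 11 had a mean of at least 1 FPKM. In IRF3-siRNA cells 9 of these had log2 ratios below 0 (median -0.34), and in YAP-siRNA cells all 10 did (median -0.47). Over all genes 53.9% were below 0 in IRF3-siRNA cells and 53.4% in YAP-siRNA cells. RBL2, the pocket protein p130, was at -0.73 in IRF3-siRNA cells and -0.55 in YAP-siRNA cells. E2F3, an activator of the family, was at -0.46 in IRF3-siRNA cells and -0.57 in YAP-siRNA cells. The repressor E2F4 was at -0.42 in IRF3-siRNA cells and -0.54 in YAP-siRNA cells, and the repressor E2F5 at -0.28 in IRF3-siRNA cells and -0.53 in YAP-siRNA cells. RBL1, the pocket protein p107 and the gene of this list under the filter, had 64 counts in IRF3-siRNA cells, 35 in YAP-siRNA cells and 96 in control cells. By count ratio, all genes of the 4 lists had at least 30 counts in a library. There RBL1 in YAP-siRNA cells was the single gene past 2-fold against control, at 0.354 (0.233 to 0.526). It is named after its value was seen. By the same rule 6.44% of all 13810 genes were lower in IRF3-siRNA cells and 5.66% in YAP-siRNA cells. RBL2 in IRF3-siRNA cells, at 0.515, and E2F3 in YAP-siRNA cells, at 0.508, came close. E2F1 lay above control where most of these relatives lay below.

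CDK inhibitors had 6 of 7 genes at a mean of at least 1 FPKM, of which 2 were above 0 in IRF3-siRNA cells (median -0.03) and 4 in YAP-siRNA cells (median 0.06). CDKN2A, which encodes the CDK4 and CDK6 inhibitor p16, had 39.1 FPKM in IRF3-siRNA cells, 52.0 in YAP-siRNA cells and 33.5 in control cells. CDKN1B, which encodes the CDK2 inhibitor p27, had 17.9 FPKM in IRF3-siRNA cells, 12.9 in YAP-siRNA cells and 20.5 in control cells. For both genes the YAP-siRNA library was the farther from control, in opposite directions, with log2 ratios of 0.62 for CDKN2A and -0.63 for CDKN1B. CDKN2C, another inhibitor of CDK4 and CDK6, was at 0.26 in IRF3-siRNA cells and 0.47 in YAP-siRNA cells on the log2 scale, and CDKN2B at -0.37 in IRF3-siRNA cells and 0.02 in YAP-siRNA cells.

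Of the genes for CDK activation and G1 cyclin turnover, 13 of 14 had a mean of at least 1 FPKM, with 9 below 0 in IRF3-siRNA cells (median -0.03) and 7 in YAP-siRNA cells (median -0.01). GSK3B, a kinase that marks cyclin D1 for export and degradation, had a log2 ratio of -0.44 in IRF3-siRNA cells and -0.49 in YAP-siRNA cells. SKP1, an SCF ubiquitin ligase subunit, had -0.45 in IRF3-siRNA cells and -0.38 in YAP-siRNA cells, while RBX1 of the same ligase had 0.32 in IRF3-siRNA cells and 0.30 in YAP-siRNA cells. CCNH, the cyclin of the CDK-activating kinase, had -0.38 in IRF3-siRNA cells and -0.05 in YAP-siRNA cells.

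Of the E2F-driven S phase genes, 27 of 28 had a mean of at least 1 FPKM, with 21 above 0 in IRF3-siRNA cells (median 0.17) and 19 in YAP-siRNA cells (median 0.15). The helicase gene MCM7 had a log2 ratio of 0.43 in IRF3-siRNA cells and 0.32 in YAP-siRNA cells, and MCM2, of the same complex, 0.41 in IRF3-siRNA cells and 0.23 in YAP-siRNA cells. The thymidine kinase gene TK1 had 0.40 in IRF3-siRNA cells and 0.25 in YAP-siRNA cells. Most of these genes thus lay above control by small amounts, beside medians over all genes of -0.03 in IRF3-siRNA cells and -0.02 in YAP-siRNA cells. The trend in level, exon length and GC content was not removed from the values of this list or the other lists.

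**Figure D5:**
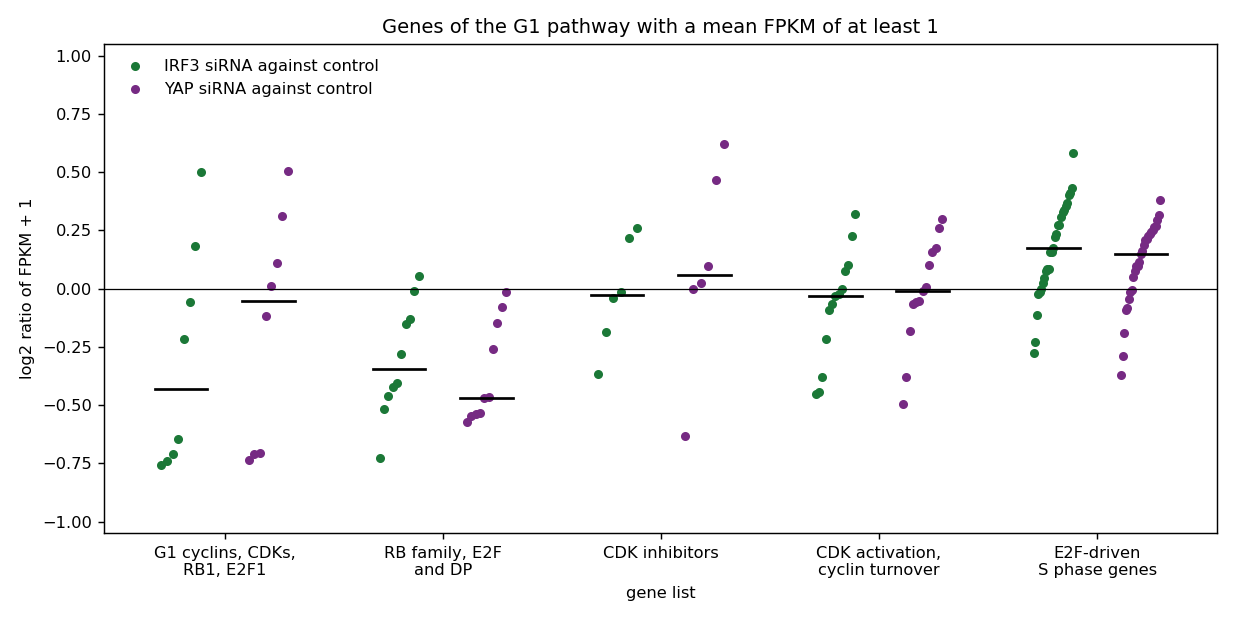
Log2 ratio of FPKM + 1 (y axis) of each gene with a mean of at least 1 FPKM, by gene list (x axis), for IRF3 siRNA against control and YAP siRNA against control; each point is a gene and each black bar a list median. The RB family, E2F and DP genes have medians of -0.34 and -0.47, and the S phase genes have medians of 0.17 and 0.15.

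Similar patterns were sought among 5052 genes with a mean of at least 5 FPKM, after clone-based and small RNA symbols were left out. The genes closest to CCND1 by their pair of log2 ratios to control were IPO7, SMARCC1 and MYH10, each at a Euclidean distance of 0.03. For E2F1 they were TMEM141 at 0.01, URB1-AS1 at 0.02 and RPS6KA1 at 0.02. These distances rest on 2 ratios that share a control library, and 26 genes lay within 0.1 of CCND1 and 53 within 0.1 of E2F1.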

How the data were processed

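Per the file headers, the deposited table holds raw counts and FPKM per gene for 3 libraries. Alignment used TopHat2 2.0.9 on hg38, per the submitters' processing notes; neither a gene counter nor an annotation release or strand setting is given in these sources. The authors' FPKM equalled the deposited counts scaled by gene length and column total within 1% for 100% of 45223 values. Log2 ratios used FPKM plus a pseudocount of 1, for genes with a mean of at least 1 FPKM, and 2-fold was the threshold. Count ratios per total carry exact Clopper-Pearson 95% intervals, ratios of ratios exact conditional ones, and levels exact Poisson ones. The members and lists were chosen with earlier results of these data known. All members were named, with up to 4 genes per list by largest ratio. For 2 members the 3 nearest genes were named. These had the lowest and highest mean of both log2 ratios of FPKM + 1 to control, among members that passed the filter. GENCODE release 29 gave union exon length, exon overlap and the GC content of the longest transcript. Coordinates there were identical for 9 of 10 members, all but RB1. Its exon length and GC content thus come from a gene model with other coordinates. 1 gene that this rule takes is not reported here. The calling functions were tested on simulated data. Alternatives are under the processing heading. Python 3.11.15, numpy 2.4.6, pandas 2.3.3, scipy 1.17.1, patsy 1.0.2, R 4.3.3 and edgeR 4.0.16 (TMM, prior count of 2) were used.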

Additional observations from a re-analysis of the deposited data

How the results depend on the processing

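No member was past 2-fold in any comparison in the values reported on the FPKM + 1 scale. With a pseudocount of 0.1 or with TMM-scaled CPM, 1 member (RB1) was past it with IRF3 siRNA against control and 1 (RB1) with YAP siRNA against control. By count ratio, chosen after seeing the data, 2 (RB1 and CDK6) were past it in each of these comparisons. At a threshold of 1.5-fold, 4 of 8 members tested (CCND1, CCND2, CCND3 and RB1) were past it with IRF3 siRNA. With YAP siRNA 3 (CCND1, CCND2 and RB1) were, and for IRF3 siRNA against YAP siRNA 1 (CCND3). Of all 11103 genes tested, 830, 691 and 273 were past 1.5-fold in these comparisons. At 2-fold, calls over all genes came to (IRF3 siRNA, YAP siRNA, direct) 111, 91 and 68 of 11103. With a pseudocount of 0.1 they were 380, 346 and 163 of 11103, and with TMM-scaled CPM 331, 305 and 145 of 11103. A filter of 5 FPKM gave 41, 36 and 27 of 5291 genes, and the count ratio 1018, 899 and 290 of 13810. Higher and lower calls stood at 43 and 68 with IRF3 siRNA and 39 and 52 with YAP siRNA, and at 40 and 39, and 35 and 36, with the trend removed; by count ratio they were 129 and 889, and 118 and 781. Of 198 alternative log2 ratios of members, 194 kept their sign. A changed filter, the smaller pseudocount and the count ratio cannot alter a sign, so those were fixed in advance. With TMM-scaled CPM 22 of 24 kept it, and with the trend removed 22 of 24. Under each of these settings 19 of 24 moved by less than counting error. Centring on the median gene and summing overlapping genes each kept all 24 signs. The 4 that changed sign lay near 0 on both sides (CCNE1 under both siRNAs against control, RB1 and E2F1 between the siRNAs). Per union exon length the CCND2 share was 34.2% with IRF3 siRNA, 27.5% with YAP siRNA and 33.7% with control siRNA, the CCND3 share 26.3%, 39.0% and 25.8%, the CCND1 share with YAP siRNA 33.5%, and the CDK4 share of CDK4 and CDK6 99.5%, 99.5% and 98.4%, beside 98.8%, 99.0% and 96.7% by FPKM; the lengths differ by construction. No paired analysis was possible because each condition has 1 library, and no library could be left out for the same reason. Depth limits CCNE2, CDK6, RB1 and CCNE1 most, at 24 to 269 counts.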

Other observations

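The gene length behind the deposited FPKM bears on any ranking of these genes. Among 9030 genes with at least 200 counts in a library and an annotated exon, that length was within 1% of the summed length of all distinct annotated exons for 86.8%, where exons shared by several isoforms with different ends are counted repeatedly. It exceeded the union exon length by a median factor of 1.58. Among the members the factor was 1.0 for E2F1, 1.08 for CCND2, 1.11 for CDK6, 1.23 for RB1, 1.46 for CCND1, 1.67 for CCNE2, 1.90 for CCNE1, 2.37 for CDK4, 2.60 for CCND3 and 2.94 for CDK2. The FPKM of CDK2, CCND3 and CDK4 are therefore low beside that of E2F1. Count ratios of a gene between libraries do not depend on the length. Log2 ratios of FPKM + 1 do depend on it through the pseudocount, as does the filter of 1 FPKM.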
